A study of Mus musculus with 6 samples.

Results

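Kruppel-like factors (KLFs) are transcription factors that bind GC boxes and CACCC boxes in promoters through a conserved set of zinc fingers at their carboxy terminus. The more variable amino-terminal part decides whether a factor activates or represses, so members that compete for the same sites can act in opposite ways. In epithelia several of them set the balance between proliferation and differentiation. In mouse kidney, Klf5 is known from collecting duct cells and Klf15 was first described as a kidney-enriched factor. The genes described here are Klf2, Klf3, Klf4, Klf5, Klf6, Klf7, Klf9, Klf10, Klf13 and Klf15. They were found by matching the RefSeq accession of each array probe to a gene symbol. Each of the 10 genes had 1 probe with 1 spot, which makes 10 of the 55681 probes on the array and 10 of the 20887 genes named there.

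RNA came from cells labelled as collecting duct cells of C57BL/6 mice on postnatal day 1. The knockout (KO) group was 3 arrays of cells from Hoxb7cre+, Bdkrb2 f/f, R26RtdTomato pups, and the wild-type (WT) group was 3 arrays of cells from Hoxb7cre+, R26RtdTomato, Bdkrb2+/+ pups. Bdkrb2 encodes the bradykinin B2 receptor. All animals, of both genotypes, were on food with 5% sodium, so the comparison is of genotype under salt, and no group without salt was analysed here. Hoxb7-driven Cre acts in the ureteric bud lineage, and GFP- and dsRED-positive cells were sorted by flow cytometry. The labels do not give the number of pups behind a sample. The KO parents both carried floxed alleles, so litter and genotype cannot be told apart. Each sample was labelled with Cy5 and hybridised against Cy3-labelled RNA of WT replicate 1, with no dye swap. Each value below is thus a log2 ratio of the sample to that one WT RNA, and the array of WT replicate 1 set that RNA against itself.

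The arrays lay on 1 slide. Cy5 signal was well above background for 56.6% to 57.5% of spots per KO array and 49.8% to 52.7% per WT array, and no spot was saturated. The single Bdkrb2 probe was not well above background on any of the 6 arrays, so it could not check the genotype labels. The KO replicate 1 array stood apart: 4.20% of 29811 tested probes lay more than 1 log2 unit from the mean of the other KO arrays, against 0.42% and 0.63% for those arrays and 0.18% to 0.29% for the WT arrays. Of the tested probes, 25.3% were called changed, 14.2% lower and 11.2% higher in KO, and for 45.2% the KO and WT ratios did not overlap. Among called probes 44.0% were higher after loess, against 77.2% when each array was centred on its median, which moved the median difference of all probes from -0.0035 to 0.22.

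The arrays of both groups carried markers of collecting duct cells and of other kidney cells. All 12 intercalated cell markers and 11 of 12 principal cell markers were well above background on every array (Scnn1g on none), as were all 12 markers each of endothelium and stroma. The level of a list is given here as the summed Cy5 signal of its markers in units of the array's 75th percentile. Principal cell markers summed to 29.6 to 42.6 in KO and 151 to 176 in WT, and intercalated cell markers to 27.6 to 35.0 in KO and 115 to 170 in WT. Endothelium markers summed to 58.2 to 62.4 in KO and 109 to 129 in WT. Stroma markers summed to 182 to 219 in KO and 36.0 to 96.1 in WT, and nephron progenitor markers to 76.2 to 147 in KO and 33.9 to 39.9 in WT. In such bulk RNA, fewer cells of a type and less RNA per cell cannot be told apart.

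**Figure D1:**
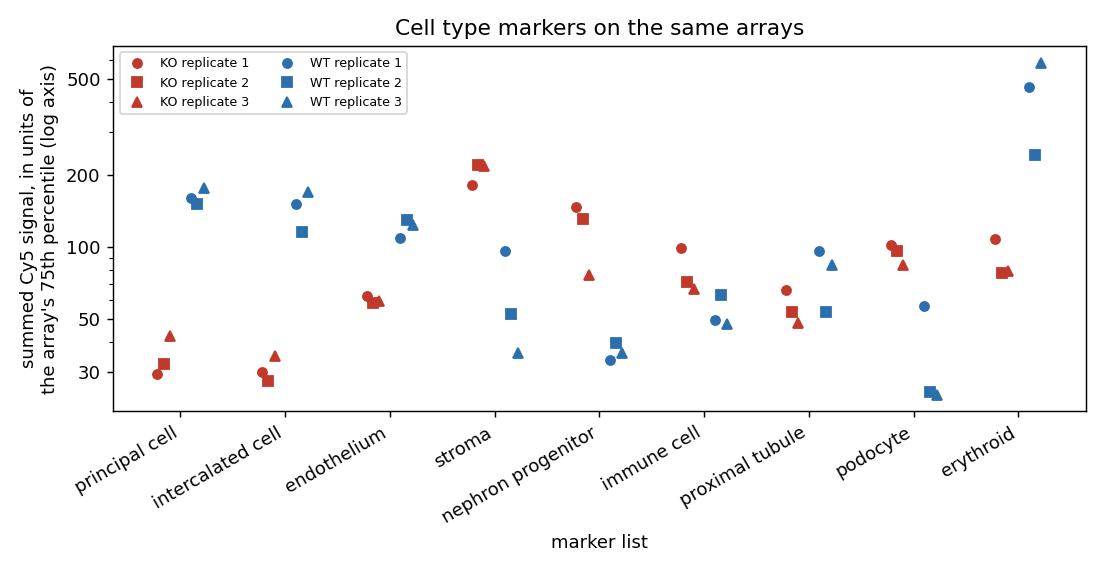
Summed Cy5 signal of each cell type marker list on each array, in units of that array's 75th percentile of Cy5 signal, on a log axis, with KO arrays in red left of WT arrays in blue. Principal cell, intercalated cell, endothelium and erythroid markers are lower on all 3 KO arrays than on any WT array, stroma, nephron progenitor, immune and podocyte markers are higher on all 3, and proximal tubule markers overlap.

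Of the 10 Kruppel-like factor probes, 6 were lower in KO by limma at an adjusted p under 0.05 (Klf4, Klf9, Klf15, Klf6, Klf2 and Klf5), and 4 did not pass the test (Klf3, Klf13, Klf7 and Klf10). No probe was higher, at the adjusted threshold or at an unadjusted p under 0.05 (0 of 10 in each case). Of all tested probes, 14.2% were called lower and 11.2% higher at the adjusted threshold. At an unadjusted p under 0.05, 20.4% of all tested probes were lower and 17.9% higher. The 6 called probes were also those whose KO and WT ratios did not overlap, beside 45.2% of all tested probes. All 10 probes were well above background on all 6 arrays, so no member entered the test through one group alone. Their median difference was -0.78 on the log2 scale, beside -0.0035 over all probes tested. Where slide row was taken as a block, which sets the KO arrays against WT replicate 1 alone, 3 of the 6 calls were kept (Klf4, Klf6 and Klf15).

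**Figure D2:**
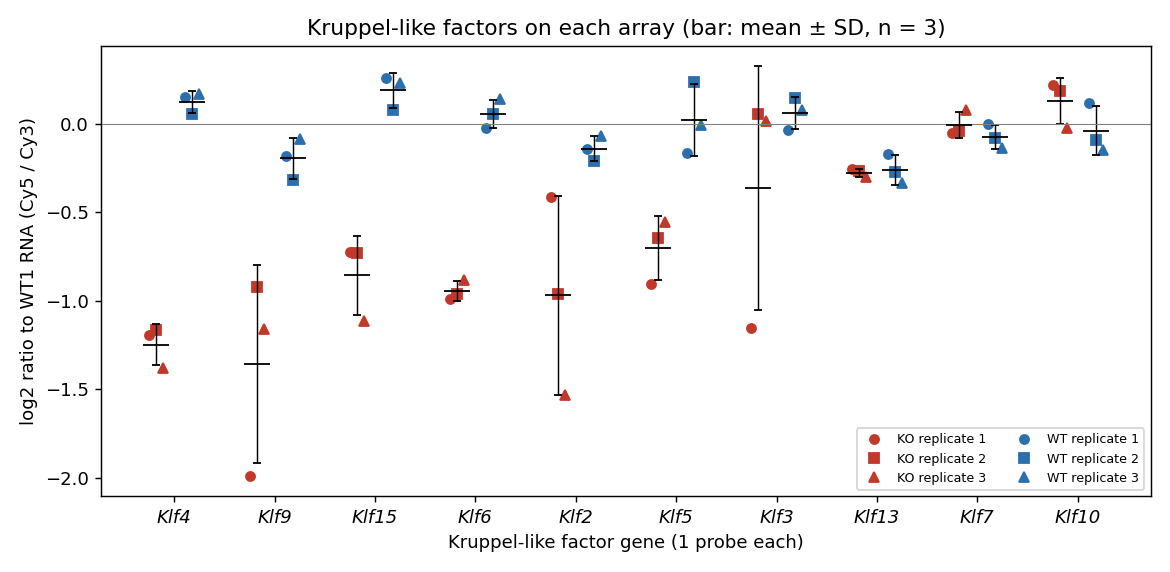
Log2 ratio of each of the 10 genes to the WT replicate 1 RNA on every array, in order of the difference, with KO in red left of WT in blue and the mean ± SD (n = 3) as black bars. From Klf4 to Klf5 all 3 KO points lie below all 3 WT points, whereas for Klf3 a single KO array lies low and for Klf13, Klf7 and Klf10 the groups overlap.

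Promoters of the members that were at least 2-fold lower in KO are shown because GC boxes and CACCC boxes, the sites that this family binds, can be read directly in them. The sequences are from RefSeq (GRCm38.p6), run 5′ to 3′ on the gene's strand from 250 bases before to 50 bases after the annotated start, and are not tied to any binding data. Capitals mark CACCC and GGGCGG on either strand.
Klf4, chr4:55532426-55532725, minus strand: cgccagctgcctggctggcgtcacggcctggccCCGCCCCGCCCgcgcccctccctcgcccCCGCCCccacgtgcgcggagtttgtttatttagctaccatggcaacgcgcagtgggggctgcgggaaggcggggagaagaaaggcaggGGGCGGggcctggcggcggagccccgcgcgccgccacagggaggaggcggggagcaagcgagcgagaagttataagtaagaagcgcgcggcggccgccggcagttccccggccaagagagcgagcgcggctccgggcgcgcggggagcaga
Klf9, chr19:23140976-23141275, plus strand: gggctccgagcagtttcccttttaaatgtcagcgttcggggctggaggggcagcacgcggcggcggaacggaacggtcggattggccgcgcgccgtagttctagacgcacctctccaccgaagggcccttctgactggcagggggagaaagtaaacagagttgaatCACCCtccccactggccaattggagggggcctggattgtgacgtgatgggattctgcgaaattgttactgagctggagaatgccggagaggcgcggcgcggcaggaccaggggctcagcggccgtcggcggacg
Klf15, chr6:90462326-90462625, plus strand: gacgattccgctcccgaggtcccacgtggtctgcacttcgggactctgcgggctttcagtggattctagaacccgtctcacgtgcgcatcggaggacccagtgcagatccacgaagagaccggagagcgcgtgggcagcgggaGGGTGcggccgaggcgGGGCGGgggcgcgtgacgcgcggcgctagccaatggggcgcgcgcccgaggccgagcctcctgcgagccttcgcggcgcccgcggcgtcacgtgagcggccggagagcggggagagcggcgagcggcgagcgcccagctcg
Klf6, chr13:5861239-5861538, plus strand: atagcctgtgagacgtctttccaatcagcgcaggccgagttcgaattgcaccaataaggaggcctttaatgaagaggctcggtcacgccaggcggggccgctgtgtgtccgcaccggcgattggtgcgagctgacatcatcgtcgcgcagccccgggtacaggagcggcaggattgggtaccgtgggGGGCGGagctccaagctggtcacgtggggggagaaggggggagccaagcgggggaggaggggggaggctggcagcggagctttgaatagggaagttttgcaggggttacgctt
The Klf4 promoter held 4 GC boxes and no CACCC box, that of Klf6 1 GC box, that of Klf9 1 CACCC box, and that of Klf15 1 of each. Promoters were found for 8 of the 10 members, not for Klf5 and Klf10. Of these 8, 7 held a GC box and 6 a CACCC box, beside 35.7% and 57.5% of the 32851 promoters of the table. Klf2, called but less than 2-fold lower, held 2 GC boxes and 1 CACCC box. The 3 with a promoter whose probes were not called each held both kinds of box. There were 6 GC boxes and 5 CACCC boxes for Klf3 (1 pair overlapping), 1 and 3 for Klf7, and 3 and 1 for Klf13 (1 pair overlapping). Their GC content was 58.3% to 76.7%, beside a median of 52.7% in the table. TGACG, the core of the cAMP response element, was in 6 of the 8 and in 20.8% of all promoters, and the CCAAT box was in 4 of the 8 and in 37.4%. TATAAA, TGACGTCA, the AP-1 site TGACTCA, the MEF2 site, the glucocorticoid response element and the serum response element matched none of the 8, beside 13.6%, 1.79%, 5.20%, 0.164%, 0.475% and 1.63% of all promoters. All motifs were searched on both strands. The MEF2 site was searched as 1 fixed sequence, and its counts are of that sequence alone. The Klf2 promoter held another form, CTAAATTTAG, which that fixed sequence does not match. Other forms of the MEF2 site were not counted in the 8 promoters or in the table.

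Klf4, Klf5 and Klf6 are factors of epithelial growth and differentiation. Klf4, which promotes growth arrest and barrier formation in epithelia and is one of the reprogramming factors, was read by probe A_55_P2122020. Its log2 ratios were -1.20, -1.17 and -1.38 on KO replicates 1 to 3 and 0.15, 0.05 and 0.16 on WT replicates 1 to 3. The KO arrays lay close together and well apart from WT, and the difference was -1.37 ± 0.10 (moderated SE, n = 3 per group; 2.59-fold lower, adjusted p = 0.000347). Of all tested probes, 2.68% had a larger absolute difference. The call held under all 19 alternative settings, with differences of -1.48 to -1.11.

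The processed signals of the same spot show how the channels have to be read together. They give the Agilent log ratios, whereas the ratios above were made from median signals. Klf4 had processed Cy5 signals of 1182, 1254 and 937 on KO replicates 1 to 3 and 1586, 1528 and 1610 on WT replicates 1 to 3. The processed Cy3 signals, which are of the same WT RNA throughout, were 2733, 2901 and 2465 on the KO arrays and 1434, 1436 and 1392 on the WT arrays. In processed signals the KO arrays were thus brighter in the channel that held no KO RNA. The 75th percentile of processed Cy5 was 548 to 625 on KO and 282 to 309 on WT arrays. A processed Cy5 signal alone therefore says little about genotype until it is set against the array's own scale. The Cy3 medians of Klf4 before processing overlapped between the groups. They were 1388, 1325.5 and 1041 on KO replicates 1 to 3, and 950.5, 1011 and 1547 on WT replicates 1 to 3.

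Klf6, a widely expressed factor induced by injury, was read by probe A_51_P451346 and shows this too. Its processed Cy5 signals were 6506, 6864 and 6423 on the KO arrays and 6829, 6663 and 6658 on the WT arrays. Its processed Cy3 signals were 11936, 12216 and 10696 on the KO arrays and 6227, 6308 and 5823 on the WT arrays. The log2 ratios were -0.99, -0.96 and -0.88 in KO and -0.02, 0.05 and 0.14 in WT. All KO values lay below all WT values with SDs of 0.06 in KO, the smallest KO SD of the called members, and 0.08 in WT, and the difference was -1.002 ± 0.098 (2.003-fold lower, adjusted p = 0.000531). It stayed called under all 19 alternatives, at -1.04 to -0.68, and was -1.01 from Cy5 alone scaled to the 75th percentile.

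Klf5, which promotes proliferation in epithelia, gave log2 ratios of -0.91, -0.65 and -0.56 in KO and -0.17, 0.23 and -0.0067 in WT (probe A_51_P507290). The groups did not overlap, but its WT arrays were the most spread among the 10 members, with an SD of 0.20 against 0.18 in KO. The difference was -0.72 ± 0.14 (1.65-fold lower, adjusted p = 0.00865). Its signal was dim, with Cy5 medians of 5.04, 6.88 and 6.86 times the local background in KO and 8.18, 6.86 and 6.80 times in WT. The difference was -0.86 with an offset of 0 and -0.88 with the Agilent log ratios. The call was lost with median centring (-0.50, adjusted p = 0.105) and when slide row was a block (-0.54, adjusted p = 0.162). On the same KO arrays the sums of principal and intercalated cell markers were lower too, and the part of those cells in the Klf4, Klf5 and Klf6 values was not tested.

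Klf9 and Klf15 are known as targets of steroid hormone receptors, Klf9 also of the thyroid hormone receptor, and Klf15 controls amino acid and glucose metabolism in mouse liver and muscle and represses a renal chloride channel promoter. Klf15 (probe A_55_P2022049) had log2 ratios of -0.72, -0.73 and -1.12 in KO and 0.26, 0.08 and 0.23 in WT. It was lower on every KO array, by -1.05 ± 0.13 (2.06-fold lower, adjusted p = 0.00146), and was called under all 19 alternatives (-1.38 to -0.85). Its signal was dim, with Cy5 medians of 5.32, 4.54 and 3.02 times the local background in KO and 7.83, 4.26 and 6.13 times in WT. The difference was -1.32 with an offset of 0 and -1.38 with the Agilent log ratios, against -1.05 with an offset of 50.

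Klf9 (probe A_65_P19780) had log2 ratios of -1.99, -0.92 and -1.16 in KO and -0.18, -0.32 and -0.09 in WT. All KO arrays were below WT, with KO replicate 1 the lowest, 0.95 below the mean of the other KO arrays. The difference was -1.16 ± 0.25 (2.24-fold lower, adjusted p = 0.0127). Without KO replicate 1 it was smaller and more precise, at -0.85 with an adjusted p of 0.000689. The call was lost without WT replicate 3 (adjusted p = 0.0611) and when slide row was a block (-1.17, adjusted p = 0.128).

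Klf2 is the flow-responsive factor of endothelium and keeps T cells quiescent. Its log2 ratios were -0.42, -0.96 and -1.54 in KO and -0.14, -0.21 and -0.07 in WT (probe A_51_P144264). The KO arrays were all below WT but spread over more than 1 log2 unit, with an SD of 0.56 against 0.07 in WT. The difference was -0.83 ± 0.25 (1.78-fold lower, adjusted p = 0.0441). Leaving out KO replicate 1 gave -1.11 (adjusted p = 0.000723), while leaving out any other array ended the call, with adjusted p of 0.0680 to 0.145, and it was also lost with the Agilent ratios (adjusted p = 0.101), the series matrix (0.101), Cy5 alone (0.0845), an offset of 0 (0.0740), no filter (0.0604), median centring (0.175) and slide row as a block (0.258). The endothelium markers fell as well. By brightest probe 10 of 12 were called lower, beside 18.5% of all genes tested. Among them were Egfl7 at -1.02, Robo4 at -1.04, Emcn at -1.15 and Tie1 at -0.51. Plvap at -0.42 and Tek at -0.29 were not called. The part of the endothelium markers in the Klf2 value was not tested.

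Klf3 represses transcription through the corepressor CtBP. Its probe A_55_P1972842 gave log2 ratios of -1.16, 0.05 and 0.01 in KO and -0.03, 0.14 and 0.08 in WT. Only KO replicate 1 was low, 1.19 below the mean of the other KO arrays, the only member value that lay more than 1 from the other arrays of its group. The difference of -0.43 ± 0.30 did not pass (adjusted p = 0.335, 95% interval -1.12 to 0.26), and without KO replicate 1 it was -0.03.

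Klf10 and Klf13 repress through the corepressor Sin3a, and Klf10 is induced by TGF-beta. The log2 ratios of Klf10 (probe A_55_P2022074) were 0.22, 0.18 and -0.02 in KO and 0.12, -0.09 and -0.15 in WT. These ranges overlapped, and the difference was 0.17 ± 0.12 (adjusted p = 0.345, 95% interval -0.11 to 0.44). Klf13 (probe A_55_P2022082) had log2 ratios of -0.26, -0.27 and -0.30 in KO and -0.17, -0.28 and -0.34 in WT. All its arrays, the WT replicate 1 RNA against itself included, were below 0. The difference was -0.02 ± 0.10 (adjusted p = 0.922, 95% interval -0.24 to 0.21), with a sign that turned under the Agilent ratios, the deposited series matrix, Cy5 alone and median centring. Klf7, a factor of neuronal growth, gave -0.06, -0.04 and 0.07 in KO and -0.0020, -0.08 and -0.14 in WT (probe A_55_P2040996). Its difference was 0.07 ± 0.10 (adjusted p = 0.653, 95% interval -0.16 to 0.29), and the sign turned with slide row as a block. For Klf7, Klf10 and Klf13 the intervals leave out a change as large as that of Klf5, in either direction.

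**Figure D3:**
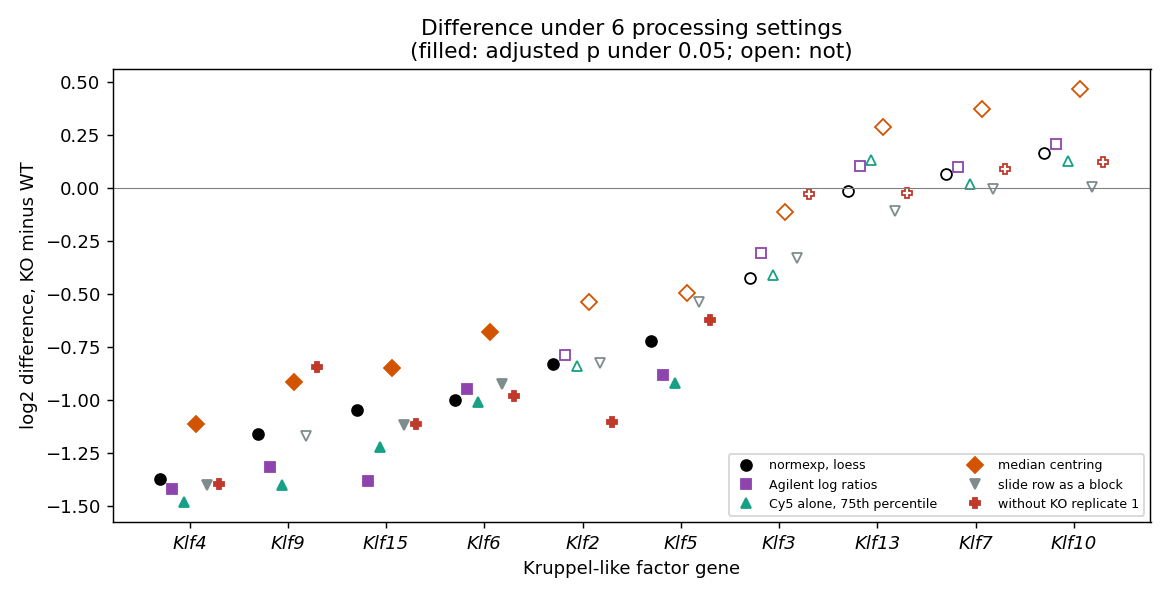
Log2 difference between KO and WT of each gene under 6 processing settings, filled where the adjusted p was under 0.05. Klf4, Klf15 and Klf6 are filled and below 0 under all 6, Klf2 is filled only under normexp with loess and without KO replicate 1, and Klf3 lies at -0.03 without KO replicate 1.

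Of the rest of the KLF and Sp family, which binds related sites, 11 genes were tested, of which 1 was lower, 2 were higher and 8 did not pass. In the gene counts from here on each gene is read by its brightest probe, and over 14755 genes 32.2% were called, 18.5% lower and 13.8% higher, and 52.1% did not overlap between KO and WT. At an unadjusted p under 0.05, 24.9% of these genes were lower and 20.7% higher. Of 7 other Kruppel-like factors, Klf1 and Klf17 were not well above background on any array, and of the 5 tested 1 was lower and 4 did not pass. Klf8, a CtBP-binding repressor like Klf3, was the lower one, with ratios of -0.16, -0.16 and -0.30 in KO and 0.30, 0.19 and 0.25 in WT (-0.45 ± 0.10, adjusted p = 0.0126). That call was lost without WT replicate 1 or 3, with median centring and with slide row as a block. Klf14, an imprinted gene, was above background on 3 of 3 KO arrays and on no WT array, and so entered the test through KO alone. Its ratios were 1.32, 1.23 and 0.24 in KO and 0.16, 0.18 and -0.04 in WT, and it was not called. Klf11, close in structure to Klf10, had 1.03, 0.04 and 0.27 in KO and -0.02, -0.30 and -0.09 in WT and did not pass (adjusted p = 0.117). None of the 5 was called higher. Of the 4 other than Klf14, 1 was higher at an unadjusted p under 0.05.

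Of 9 Sp factors, Sp7, Sp8 and Sp9 were not well above background on any array, and of the 6 tested 2 rose and 4 did not pass. No Sp factor was called lower, with 1 lower at an unadjusted p under 0.05. Sp5, a target of Wnt signalling, had ratios of 1.76, 1.51 and 1.35 in KO and 0.15, 0.59 and 0.37 in WT (1.17 ± 0.15, 2.25-fold higher, adjusted p = 0.00156). Sp1, the ubiquitous founder of the family, had 1.09, 0.48 and 0.73 in KO and 0.09, -0.17 and -0.07 in WT (0.82 ± 0.16, 1.76-fold higher, adjusted p = 0.00893, lost with slide row as a block). Whether the Kruppel-like and Sp factors differ in direction was not tested.

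**Figure D4:**
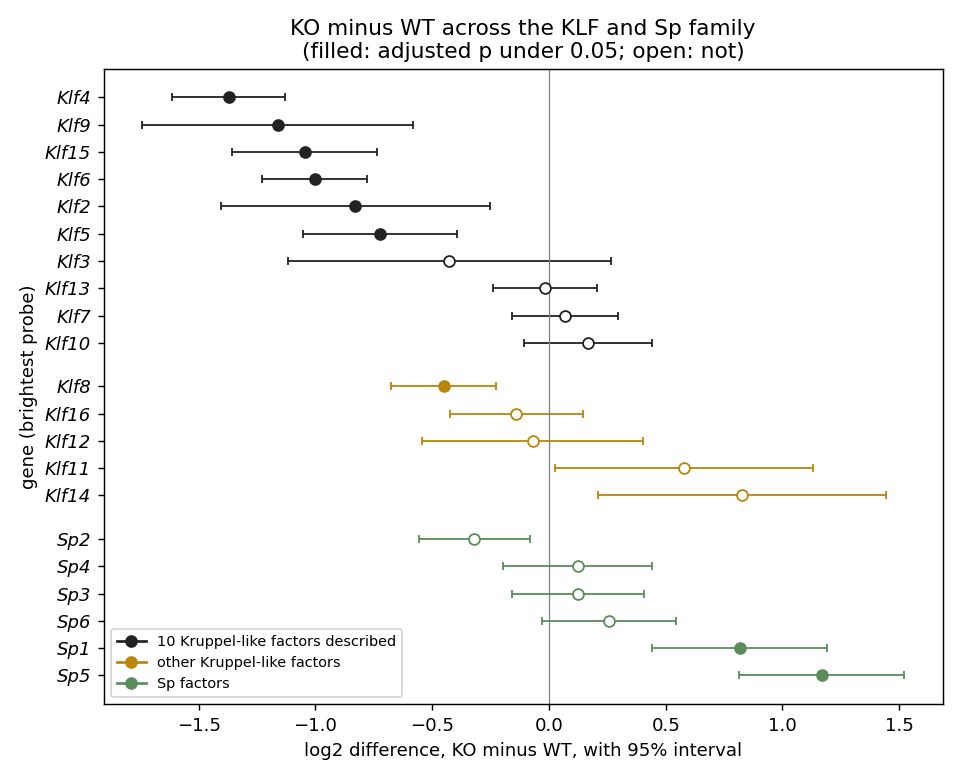
Log2 difference between KO and WT with its 95% interval for the 10 Kruppel-like factors described, 5 other Kruppel-like factors and 6 Sp factors, each by its brightest probe, filled where the adjusted p was under 0.05. The filled points of the Kruppel-like factors lie below 0, and the filled points of the Sp factors, Sp1 and Sp5, lie above 0.

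The cofactors through which these proteins act were mostly not called. Of 11 corepressors, coactivators and ubiquitin ligases, 1 was lower (Sin3b, -0.38 ± 0.10, adjusted p = 0.0285) and none was called higher, with 1 higher at an unadjusted p under 0.05. The Sin3b call was lost in 12 of 19 alternatives, and its sign turned to 0.03 with median centring. In the MEK5-ERK5-MEF2 pathway, which drives Klf2 and Klf4 in endothelium, 1 of 7 tested genes was higher, the ERK5 kinase gene Mapk7 (0.54 ± 0.10, adjusted p = 0.00552, lost with slide row as a block), and none was called lower, with 1 lower at an unadjusted p under 0.05.

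Among 8 genes known as targets of KLF2 or KLF4 in endothelium and lymphocytes, 5 fell, 1 rose and 2 did not pass, with a median of -0.86 beside -0.02 over all genes. Thrombomodulin (Thbd) had ratios of -0.76, -0.81 and -0.72 in KO and 0.23, 0.17 and 0.20 in WT (-0.97 ± 0.09, adjusted p = 0.000497). Nitric oxide synthase 3 (Nos3) differed by -1.11 ± 0.12 (adjusted p = 0.000638), prostaglandin D2 synthase (Ptgds) by -0.999 ± 0.18 (adjusted p = 0.00564), and S1pr1, the lymphocyte egress receptor, by -0.98 ± 0.23 (adjusted p = 0.0170). The Ptgds call was lost with median centring and when slide row was a block, and the S1pr1 call when slide row was a block and without WT replicate 2 or 3. Endothelin 1 (Edn1), which KLF2 is known to repress in endothelium, was also lower (-0.75 ± 0.10, adjusted p = 0.00144). These values stood beside the lower endothelium sums, whose part was not tested.

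Of 8 cell cycle and epithelial targets of KLF4 and KLF5, 4 fell, 2 rose and 2 did not pass, with a median of -0.56. The ones that fell were E-cadherin (Cdh1, -1.52 ± 0.13, adjusted p = 0.000429), keratin 19 (Krt19, -1.76 ± 0.31, adjusted p = 0.00513), the cell cycle inhibitor p21 (Cdkn1a, -0.83 ± 0.10, adjusted p = 0.000945) and Pdgfa (-0.75 ± 0.13, adjusted p = 0.00439). KLF4 is known to activate Cdkn1a and to repress Ccnb1. Cdkn1a had ratios of -0.86, -0.93 and -0.78 in KO and -0.04, -0.06 and 0.02 in WT. Cyclin B1 (Ccnb1) rose by 0.68 ± 0.14 (adjusted p = 0.00952) and Myc by 0.78 ± 0.15 (adjusted p = 0.00870), both higher on 3 of 3 KO arrays than on any WT array. With slide row as a block the Krt19, Myc and Ccnb1 calls were lost (adjusted p = 0.0962, 0.106 and 0.0560), and with median centring those of Cdkn1a and Pdgfa (adjusted p = 0.0551 and 0.295). Collecting duct markers were lower on the same KO arrays, 11 of 11 tested principal cell markers (median -1.90) and 12 of 12 intercalated cell markers (median -2.29), and their part in these values was not tested.

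Of 8 metabolic targets of KLF15, 4 fell and 4 did not pass (median -0.50). None was higher, also at an unadjusted p under 0.05 (0 genes). Those that fell were the branched-chain amino acid genes Bckdhb (-0.70 ± 0.12), Bckdha (-0.48 ± 0.10) and Bcat2 (-0.52 ± 0.14) and the glucose transporter gene Slc2a4 (-0.91 ± 0.19), with adjusted p of 0.00421, 0.0122, 0.0304 and 0.0104. All 4 calls were lost with median centring, that of Slc2a4 also when slide row was a block, Bcat2 in 9 of 19 alternatives and Bckdha in 6. Prodh and Gpt, which KLF15 also activates, gave -0.03 and -0.29 and did not pass.

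Of 9 genes of glucocorticoid response that were above background in both groups, 4 fell and 5 did not pass (median -0.53), and none was higher, also at an unadjusted p under 0.05 (0 genes). The kinase gene Sgk1 differed by -1.71 ± 0.12 (adjusted p = 0.000347), Dusp1 by -0.87 ± 0.12 (adjusted p = 0.00215) and Hsd11b2, which inactivates glucocorticoids in principal cells, by -0.997 ± 0.22 (adjusted p = 0.0145). The Dusp1 call was lost with median centring (adjusted p = 0.0833), and the Hsd11b2 call without WT replicate 1 (adjusted p = 0.0601) or 3 (0.0667) and with a slide row block (0.0830). Fkbp5 at 0.18 ± 0.14, Tsc22d3 at 0.30 ± 0.17 and Per1 at 0.05 ± 0.19 did not pass. The mineralocorticoid receptor gene Nr3c2 was above background on no KO array and on 3 of 3 WT arrays, so it entered the test through WT alone and is not counted here. Its ratios were -0.52, -0.55 and -0.36 in KO and 0.14, -0.21 and 0.26 in WT. The receptor gene Nr3c1 gave -0.53 ± 0.22 and did not pass (adjusted p = 0.119). Hsd11b2 is counted among the principal cell markers too, and those markers were lower on the same KO arrays. Their part in these values was not tested.

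Of 9 tested genes of TGF-beta signalling and response, 2 rose, 1 fell and 6 did not pass (median -0.12). Tgfb3 rose by 1.87 ± 0.17 (adjusted p = 0.000482) and Tgif1 by 0.53 ± 0.12 (adjusted p = 0.0146), and the receptor gene Tgfbr2 was lower (-0.38 ± 0.10, adjusted p = 0.0312). The Tgif1 call was lost without WT replicate 1 (adjusted p = 0.0618) or 3 (0.0730) and with a slide row block (0.0942). The Tgfbr2 call was lost in 11 of 19 alternatives. Smad7, which TGF-beta induces as it does Klf10, gave -0.61 ± 0.24 and did not pass.

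Immediate early genes, to which Klf2, Klf4, Klf6 and Klf10 are often added because they respond within minutes to stimuli and to tissue dissociation, were lower in 8 of 14 tested and not called in 6 (median -0.45). None was higher, also at an unadjusted p under 0.05 (0 genes). Ier3 had ratios of -2.28, -2.08 and -2.05 in KO and -0.02, -0.46 and 0.09 in WT (-2.01 ± 0.16, adjusted p = 0.000364). Atf3 differed by -1.46 ± 0.12 (adjusted p = 0.000386), Fosb by -0.94 ± 0.18 (adjusted p = 0.00783) and Junb by -0.63 ± 0.13 (adjusted p = 0.00961). Both calls were lost with median centring (adjusted p = 0.0607 for Fosb and 0.167 for Junb) and when slide row was a block (0.135 and 0.105), and that of Junb also without WT replicate 3 (0.0509). Egr1 gave -0.09 ± 0.22 and Btg2 -0.13 ± 0.20 and did not pass. Jun had ratios of -2.49, -0.61 and -1.15 in KO and 0.05, 0.16 and 0.30 in WT, lowest on KO replicate 1 as Klf3 and Klf9 were. Its call was lost in 9 of 19 alternatives. Dissociation time and sorting time are not given in the labels, and their part in these values was not tested.

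Over the 6 arrays, the genes whose ratios lay nearest to those of Klf4 were Fam241a, Tmem125 and Fhod3, with root mean square differences of 0.10, 0.11 and 0.12 log2 units. Tmem125, for example, had -1.20, -1.19 and -1.14 in KO and 0.19, -0.08 and 0.14 in WT. This likeness is a description over 6 arrays that share a reference RNA.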

How the data were processed

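Per the file headers, the deposited intensity values are the median Cy5 and Cy3 brightness of each spot and of its local background, made by Agilent Feature Extraction 10.7.3.1 (the submitters' processing notes name version 6.1). Per the file headers, the deposited log10 ratios are of processed Cy5 over processed Cy3, background-subtracted and dye-normalised, and the value table of the series, also deposited, gives these log10 ratios to fewer digits. Probes were named by matching accessions, without versions, to RefSeq (GRCm38.p6), which named 27509 of 55681 probes.

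The background of the median intensities was removed by normexp (offset 50), and log2 ratios were normalised within arrays by loess, with control spots at weight 0. Spots marked as outliers were left out (463 to 679 per array), as were 117 probes with a missing value. Probes well above background in Cy5 on at least 3 of 6 arrays were tested (29811). The difference KO minus WT came from limma 3.58.1 (R 4.3.3) with lmFit and eBayes. Its 2-sided p-values, on 4 residual and 3.88 prior degrees of freedom, were adjusted by Benjamini and Hochberg's method across every tested probe, and 0.05 was the threshold. Errors are moderated standard errors, and intervals are 95%. The number of arrays limits the precision. The design text calls the replicates biological but does not say that they came from separate animals, so p-values measure only the spread between these samples.

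The members and lists were chosen with earlier results of these data known. The text names every probe of the 10 members, in each list up to 4 called genes with the smallest p and any gene in a direction that at most 5 of the list took, and the 3 genes nearest to the member with the largest called decrease. Some list genes are counted but not reported here by name. Jun and the genes named as not passing were chosen after their values were seen. The alternatives were other background, normalisation, filter, weighting and probe summary choices, blocks for slide row and replicate number, and leaving out each array.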

Additional observations from a re-analysis of the deposited data

How the results depend on the processing

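Klf4, Klf6 and Klf15 kept their direction and their call under all 19 alternatives, Klf5 and Klf9 under 17 each and Klf2 under 7. With slide row as a block 2182 probes changed (1497 lower, 685 higher), of which 3 were Kruppel-like factors, all 3 lower. This fit leaves 1 WT array beside the KO arrays. Median centring called 1373 probes lower, with the median difference of all probes at 0.22. Leaving out single arrays gave 3804 (without WT replicate 3) to 9496 changed probes, 2337 to 5159 lower and 1467 to 4337 higher, with 4857 without WT replicate 1, and 4 to 6 Kruppel-like factors changed, all lower. Uncalled differences near 0 changed sign: Klf13 to 0.10 with the Agilent ratios and the series matrix, 0.13 with Cy5 alone, 0.29 with median centring and -0.054 to 0.029 when single arrays were left out, positive without WT replicate 1, and Klf7 to -0.0058 with slide row as a block. Sin3b turned to 0.032 with median centring. The cause was not tested. Same-numbered KO and WT arrays correlated in their deviations from the group means at 0.14, 0.07 and 0.19, so the numbers were not taken as pairs, although each array correlated best with its own number; with the replicate block 7240 probes and 6 Kruppel-like factors changed. Dim probes such as those of Klf5 and Klf15 are limited by signal over background.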
